A study of Drosophila melanogaster with 5 samples.

Results

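The genes described here are 10 components of epidermal growth factor receptor (EGFR) signalling in the *Drosophila* testis. They are the germline protease gene *stet*, the ligand genes *spi* and *vn*, the ligand-processing genes *S* and *rho*, the receptor gene *Egfr*, and *drk*, *rl*, *pnt* and *aos*, which act after the receptor or against the ligand. They were taken by symbol from a table of 17528 features, of which 14819 are genes, and each symbol matched 1 row. The set was chosen by gene symbol with earlier results of these libraries in view. The measured decrease of *stet* over the time course was among the values that the set was selected on, so that the levels of the 10 genes are given as a description. Each library was made from polyA RNA of about 100 pairs of testes, whole and with seminal vesicles, from males of the genotype hs-bam; bam[1]/bam[86]. All 5 libraries share that genotype, in which the germ line lacks bam function and a bam transgene stands under a heat shock promoter, a promoter that is not restricted to germ cells. Flies were raised at 25 °C and 1 library (no HS) came from males that were never heat shocked. The other 4 came from males heat shocked as mid- to late-stage pupae for 30 min at 37 °C and taken 8, 16, 24 or 32 h post heat shock (PHS). Without bam the spermatogonia go on dividing, and the pulse of Bam lets them stop and become spermatocytes, and the comparison of each time with no HS asks which transcripts change on the way. Since 0 of the libraries were heat shocked without the transgene, the action of Bam and that of the heat shock cannot be told apart in a comparison with no HS.

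In the testis, germ cells send an EGF signal to the pair of somatic cyst cells that encloses each germ cell clone, and the cyst cells respond by wrapping and supporting that clone. The ligand Spitz (*spi*) is made as a membrane-bound precursor. Star (*S*) carries the precursor out of the endoplasmic reticulum, and a rhomboid protease cuts it inside the membrane to release the active form. Stem cell tumor (*stet*) is the rhomboid protease that acts in germ cells, and its loss leaves early germ cells that are not properly enclosed. In the receiving cell, Egfr signals through the adaptor Drk, the Ras pathway and the MAP kinase Rolled (*rl*) to the ETS transcription factor Pointed (*pnt*), while Argos (*aos*) is a secreted protein that binds Spitz and keeps it from the receptor.

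The libraries held between 10356663 reads (no HS) and 28766676 reads (24 h PHS) on features, so that 1 normalized count per 1000000 reads (CPM) was worth 10.3 reads in no HS and 21.1 to 28.6 reads in the others. With 1 library per time point no difference has a replicate check. The intervals given here are exact 95% intervals from the reads, they cover counting error only, and they compare libraries rather than conditions. A change is the difference of log2(CPM + 1), and a gene counts as lower or higher when that change is beyond 1, which is 2-fold. As a check of the labels, *bam* was at 64.7 CPM before heat shock and then at 128 (8 h), 90.4 (16 h), 74.2 (24 h) and 60.5 CPM (32 h PHS). On the log2(CPM + 1) scale *bam* was at 6.04 in no HS and 7.01 at 8 h PHS, just inside the 2-fold line. The spermatocyte markers summed to between 37.1 and 51.9 CPM up to 16 h, and to 242 CPM at 24 h and 835 CPM at 32 h PHS. Not all 8 of them shared this rise. Higher by more than 2-fold than no HS were 3 by 24 h (0.548% of all features) and 4 by 32 h (1.13%). *topi* fell from 18.3 CPM to 8.35 (16 h) and 5.43 CPM (24 h), past 2-fold both times, before it reached 36.2 CPM (32 h). All 5 cyst cell markers (*tj*, *zfh1*, *eya*, *so* and *ptc*) had reads in every library. Accessory gland markers summed to at most 2.0 CPM (57 reads, at 24 h), and SP and Acp26Aa each had 0 reads in some of the libraries. The ejaculatory duct marker *Dup99B* was at 8.86, 2.46, 12.2, 3.57 and 0.633 CPM in the order no HS to 32 h PHS. *Est-6*, of the same list, lay between 75.9 and 104.1 CPM.

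All 10 genes had reads in all 5 libraries, from 56 reads of *rho* in no HS to 3656 of *S* at 24 h PHS. From 16 h PHS on *stet* was below its no HS level by more than 2-fold, and the other 9 genes stayed within 2-fold of no HS at every time. At 8 h PHS 0 of the 10 genes were lower or higher by more than 2-fold, where 0.165% of all features were lower and 0.2% were higher. At 16 h 1 of the 10 was lower (0.416% of all features), at 24 h 1 (0.987%) and at 32 h 1 (1.18%), in each case *stet*. The number higher was 0 at 16, 24 and 32 h, where 0.228%, 0.548% and 1.13% of all features were higher. Among the 8873 features whose mean level reached 1 CPM, which include all 10 genes, 70, 169 and 204 were lower at these times. Higher were 36, 90 and 154 of them. Many of the other features start too low to be called lower, so that the shares over all features are small for expressed genes. In the order of the times, the median change of the 10 genes was -0.01, -0.04, 0.01 and -0.18, beside 0.0, 0.0, 0.01 and 0.0 over all features. All 4 of these comparisons share the no HS library. Within 2-fold, some differences were larger than the counting error. At 8 h the interval lay below no change for 4 of the 10 genes (*stet*, *S*, *pnt* and *drk*) and above it for 2 (*rho* and *aos*). Of the 8873 features whose mean level reached 1 CPM, 18.4% had an interval below no change there and 20.4% had one above it. At 32 h it lay below no change for 6 (*stet*, *spi*, *S*, *rho*, *pnt* and *drk*), above it for 1 (*rl*), and held no change for 3 (*vn*, *Egfr* and *aos*), beside 28.4% of those features below and 26.5% above. At this depth such intervals are common.

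**Figure D1:**
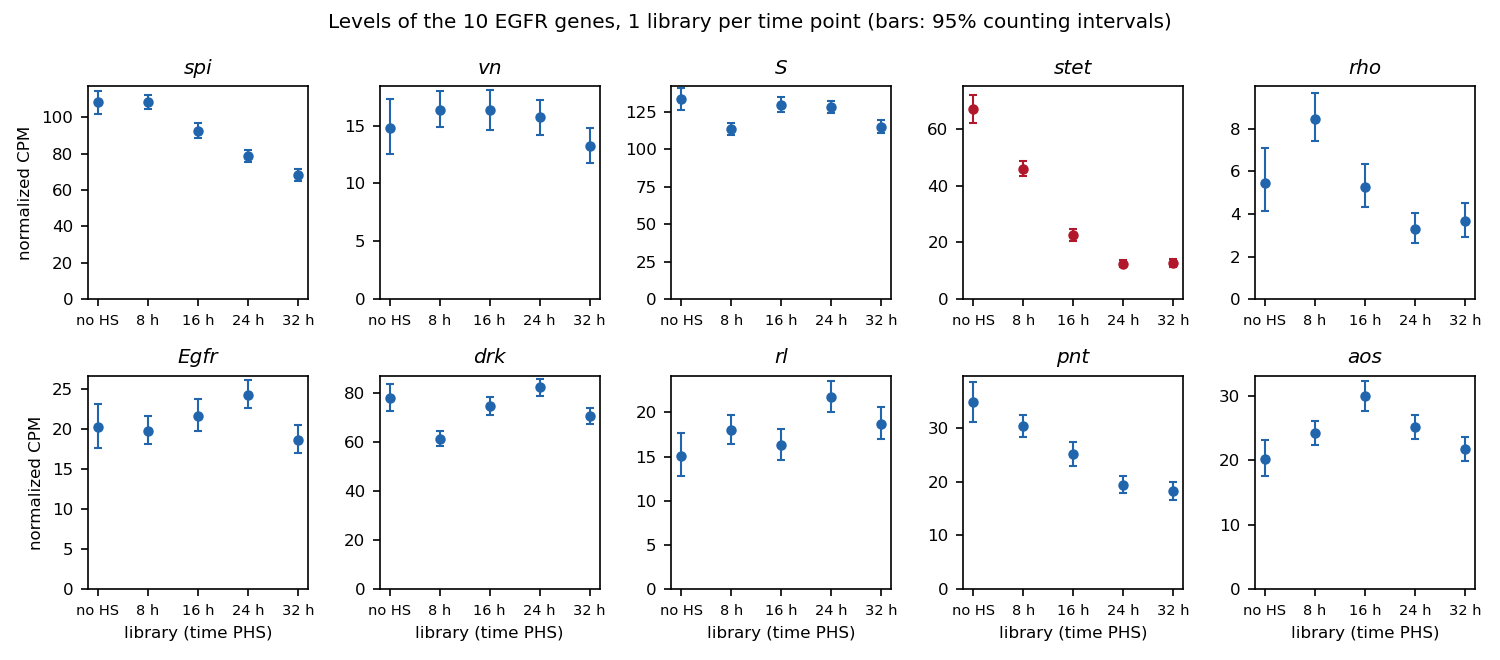
Normalized CPM (y axis, from 0) of each of the 10 genes in the 5 libraries (x axis), 1 point per library, with bars for the exact 95% Poisson interval of its reads. *stet* (red) goes from 66.9 CPM in no HS to 12.5 CPM at 24 h PHS, *spi* from 108 to 68.1 CPM and *pnt* from 34.8 to 18.2 CPM at 32 h PHS, while *Egfr* lies between 18.7 and 24.3 CPM.

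Per kilobase of annotated exon, the scale on which genes can be compared, *spi* stood highest in every library, from 59.6 CPM per kb at 8 h to 37.5 at 32 h PHS. In no HS the next were *drk* at 26.5, *stet* at 26.2 and *S* at 25.6 CPM per kb, and the counting intervals of these neighbours overlapped. *aos* followed at 7.14 and *pnt* at 5.68, then *Egfr* at 2.92, *vn* at 2.82, *rl* at 1.99 and *rho* at 1.82 CPM per kb. On this scale the genes that make and process the germ cell ligand were thus, except for *rho*, well above the receptor. In whole testes such a difference joins the number of cells of each type with the RNA per cell. By 24 h PHS *stet* had gone to 4.92 CPM per kb, below *aos* at 8.93 and above *Egfr* at 3.50. *Egfr*, *pnt*, *vn* and *rl* were then at 3.50, 3.16, 2.99 and 2.87 CPM per kb and did not differ from their neighbours in that order beyond the counting error.

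*stet* (FBgn0020248) lies on chromosome 3L from 1475438 to 1489547 on the reverse strand of BDGP6.54, with 2550 exonic bases in 9 blocks, none shared with another annotated gene. It was at 66.9 CPM with no heat shock, followed by 46.0 (8 h), 22.6 (16 h), 12.5 (24 h) and 12.6 CPM (32 h PHS). The level was highest in no HS, lower in each library up to 24 h and alike in the last pair. Relative to no HS the change was -0.53 after 8 h, -1.53 after 16 h, -2.33 after 24 h and -2.32 after 32 h. As a share of the level without heat shock, 68.8% was left after 8 h (95% interval 62.6% to 75.6%), 33.8% after 16 h (30.0% to 38.0%), 18.7% after 24 h (16.4% to 21.3%) and 18.8% after 32 h (16.4% to 21.6%). Among the 6580 features with at least 10 CPM in no HS, the decrease of *stet* held rank 70 after 8 h, 7 after 16 h, 3 after 24 h and 5 after 32 h, counted from the most lowered feature. In whole testes, fewer cells of a type and less RNA per cell cannot be told apart.

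The decrease was spread over the first 3 intervals and had ended by the last. From no HS to 8 h and from 8 h to 16 h PHS *stet* went to 68.8% and then to 49.1% of the preceding library (interval 44.1% to 54.6%), and from 16 h to 24 h to 55.5% (48.3% to 63.8%). On the log2(CPM + 1) scale, which the calls use, the step from 8 to 16 h was a change of -1.0 and lay just inside the 2-fold line. From 24 h to 32 h the level was 100% of the preceding library, with an interval of 85.8% to 117%. The later steps do not use the no HS library, which is the shallowest and the only one without heat shock. Set against 8 h PHS alone, *stet* was at 27.2% at 24 h (interval 24.1% to 30.7%) and at 27.3% at 32 h (24.0% to 31.0%), changes of -1.80 and -1.79. Against 8 h alone, 0 of the 10 genes were lower by more than 2-fold at 16 h, where 0.177% of all features were.

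The summed level of the 6 germ line markers moved less than *stet*. That of the spermatocyte list rose at 24 and 32 h PHS, though at 24 h not in every gene of the list. All 6 germ line markers (*vas*, *nos*, *zpg*, *aub*, *bgcn* and *tej*) had reads in every library, and their summed level was 1559.5 CPM before heat shock and then 1443.4 (8 h), 1306.5 (16 h), 1351.1 (24 h) and 1209.6 CPM (32 h PHS). Counted within each library, where no scaling enters, there were 42.9 reads of *stet* per 1000 reads of the germ line list in no HS (interval 39.7 to 46.3). The later libraries had 31.9 (8 h), 17.3 (16 h), 9.28 (24 h, interval 8.34 to 10.3) and 10.4 (32 h, 9.25 to 11.7). The lower ratio follows from the decrease of *stet*, on which the set was selected, and from the smaller change of the summed list. It does not tell apart fewer germ cells of a stage and less RNA per cell. Of the exon of *vas* 24.6% overlaps another gene, as does 15.9% of that of *nos*, and their counts are uncertain to that extent. Single genes of the list differed from one another, and *zpg*, a germ cell gap junction gene, was itself lower by more than 2-fold at 32 h PHS.

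*spi* (FBgn0005672), on chromosome 2L from 19567900 to 19577315 on the reverse strand, encodes the Spitz ligand precursor. It was at 108 CPM with no heat shock, followed by 108 (8 h), 92.5 (16 h), 78.8 (24 h) and 68.1 CPM (32 h PHS). The first pair of libraries was alike and each later one was lower than the one before it, and the counting intervals of these 3 steps all lay below 100%. Relative to no HS the change was 0.0 after 8 h, -0.22 after 16 h, -0.45 after 24 h and -0.66 after 32 h, or 62.9% of no HS at 32 h (interval 58.3% to 68.0%). *spi* thus did not reach the 2-fold line at any time, and its rank from the most lowered feature was 384 of 6580 at 32 h. Of the other ligand genes, *vn*, which encodes the neuregulin-like Vein, a ligand that needs no rhomboid protease, was at 14.8, 16.3, 16.3, 15.7 and 13.2 CPM in the same order of libraries. All 4 intervals of *vn* against no HS held no change. *Krn*, for the Spitz-like ligand Keren, lay between 20.6 and 24.4 CPM, with 21.3% of its exon overlapping another gene. *grk*, whose Gurken protein is the ligand of the oocyte, went from 10.4 CPM in no HS to 6.71 CPM at 32 h PHS. Of these 4 ligand genes 0 were past 2-fold at any time, as were at most 1.18% of all features in either direction, and their median change was -0.40 at 32 h PHS, beside 0.0 over all features.

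*S* (FBgn0003310), on chromosome 2L from 1049674 to 1077815, encodes the membrane protein that escorts Spitz to the compartment where it is cut. It was at 133 CPM before heat shock and then at 114 (8 h), 129 (16 h), 128 (24 h) and 114.8 CPM (32 h PHS). The libraries at 8 and 32 h were the low ones and the other 3 had overlapping intervals. At 24 h *S* was at 96.1% of no HS with an interval of 90.2% to 102%, so that no difference was detectable there, whereas *stet* was at 18.7%. The ratio of *stet* to *S*, per kb of exon, was 1.02 in no HS and 0.828, 0.356, 0.200 and 0.224 in the libraries that followed.

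*rho* (FBgn0004635) encodes Rhomboid-1, the first described protease of the family, and lies near *stet*. It lies on chromosome 3L from 1463811 to 1468944 on the forward strand, and 6493 bp separate it from *stet*, with *Naa30B* wholly between them. The longer gene *Ptp61F*, from 1342493 to 1475257 on the reverse strand, spans both *rho* and *Naa30B*. *rho* was at 5.45 CPM (56 reads) with no heat shock, followed by 8.47 (8 h), 5.27 (16 h), 3.29 (24 h) and 3.67 CPM (32 h PHS). The library at 8 h was the high one and those at 24 and 32 h the low ones. Its share of the no HS level was 155% after 8 h (interval 116% to 212%), 96.6% after 16 h (69.5% to 136%), 60.4% after 24 h (42.9% to 85.6%) and 67.4% after 32 h (47.6% to 96.0%). Against 8 h PHS alone *rho* was past 2-fold, with changes of -1.14 at 24 h and -1.02 at 32 h. *rho* and *stet* were then the 2 of the 10 genes that were lower, where 0.725% of all features were lower at 24 h and 1.08% at 32 h. In the library at 8 h 3 of the 5 heat shock genes measured were above no HS by more than 2-fold (0.2% of all features), and 0 were in the later libraries (at most 1.13%). The 5 genes summed to 7505.9 CPM in no HS and, in the order of the times, to 10839.5, 6633.6, 10147.0 and 10131.9 CPM. They did not share a course. *Hsp83*, the largest part of the sum, was at 4956.4, 3876.6, 3524.2, 6005.1 and 5676.7 CPM from no HS to 32 h PHS. In the same order *Hsp27* was at 1435.1, 2709.8, 1589.4, 2598.7 and 2726.2 CPM and *Hsp23* at 423.9, 2229.1, 681.7, 643.2 and 652.4 CPM. The part of the heat shock in the level of *rho* was not tested. Between *stet* and *rho* the ratio per kb of exon was 14.4 in no HS, with only 56 reads of *rho*, 6.39 after 8 h (interval 5.54 to 7.39) and 4.03 after 32 h (3.16 to 5.18), so that these nearby genes did not keep a constant proportion.

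The 7 rhomboid genes in the table show how far *stet* moved within its own family. Per kb of exon they summed to 87.3 CPM in no HS and 59.8 CPM at 24 h PHS. *stet* made up 30.0% of that sum before heat shock, 22.2% after 8 h, 13.4% after 16 h, 8.22% after 24 h and 7.98% after 32 h. *rho-4*, the most abundant of them on this scale, went from 33.8 to 26.6 CPM per kb between no HS and 32 h PHS, and 16.5% of its exon overlaps another gene. *rho-7*, the mitochondrial member, went from 21.7 to 26.4 CPM per kb, but 56.8% of its exon overlaps another gene, and its value is uncertain because whether reads were counted by strand is not given in the sources used here. *rho-5* was at 14.2 CPM before heat shock and then at 13.5 (8 h), 8.92 (16 h), 8.09 (24 h) and 9.67 CPM (32 h PHS), 56.9% of no HS at 24 h (interval 46.1% to 70.5%). *ru* and *rho-6* stayed at or below 1.05 CPM in every library, where few reads leave wide intervals. Lower by more than 2-fold was 1 of the 7 genes, *stet*, at 16, 24 and 32 h, where 0.416%, 0.987% and 1.18% of all features were lower. On the log2(CPM + 1) scale *ru* started at 0.831 and *rho-6* at 0.37 in no HS, so that neither could be called lower.

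**Figure D2:**
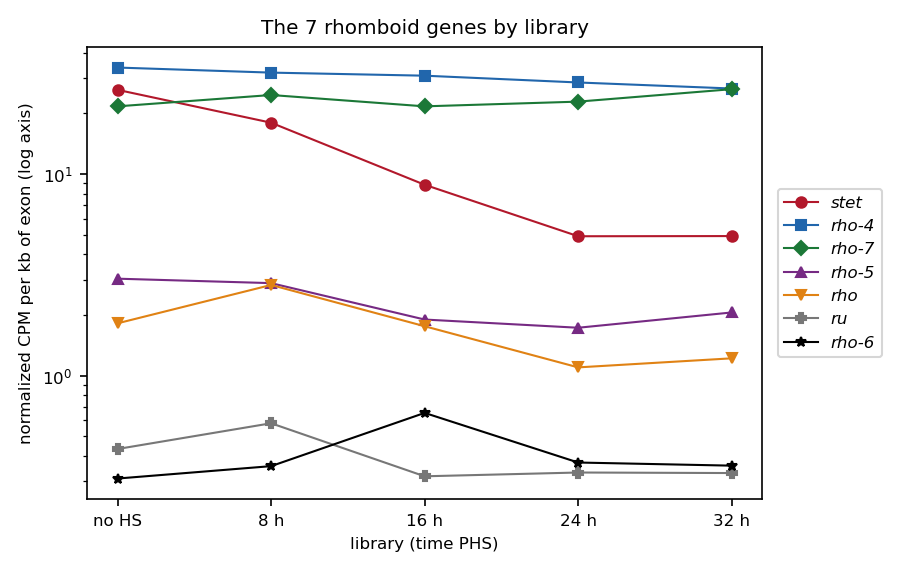
Normalized CPM per kb of annotated exon (log y axis) of the 7 rhomboid genes in the 5 libraries (x axis), 1 point per gene and library, joined by lines to guide the eye. *stet* goes from 26.2 to 4.93 CPM per kb, while *rho-4* stays between 26.6 and 33.8 and *rho-7* between 21.7 and 26.4.

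*Egfr* (FBgn0003731), on chromosome 2R from 21522420 to 21559977, encodes the receptor of all these ligands. It was at 20.3 CPM with no heat shock, followed by 19.8 (8 h), 21.7 (16 h), 24.3 (24 h) and 18.7 CPM (32 h PHS). The library at 24 h was the high one, at 120% of no HS (interval 103% to 141%), and the intervals at 8, 16 and 32 h held no change. The adaptor gene *drk* (FBgn0004638), on chromosome 2R from 13495222 to 13502841, was at 78.1, 61.5, 74.7, 82.4 and 70.8 CPM in the order no HS to 32 h PHS. Its low library was that at 8 h, at 78.8% of no HS (interval 72.4% to 85.8%). Of the exonic bases of *drk* 19.6% are shared with *mars* on the opposite strand, and the value is uncertain to that extent. The MAP kinase gene *rl* (FBgn0003256), on chromosome 2R from 1071462 to 1125927, was at 15.1 CPM before heat shock and then at 18.0 (8 h), 16.3 (16 h), 21.8 (24 h) and 18.7 CPM (32 h PHS). The library at 24 h was the high one, with 145% of no HS (interval 121% to 174%). None of these 3 genes was past 2-fold from no HS at 8, 16, 24 or 32 h.

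Ratios taken within a library do not depend on how the libraries were scaled. Per kb of exon, *stet* had 9.0 times the reads of *Egfr* in no HS (interval 7.69 to 10.6), 6.33 times after 8 h, 2.83 after 16 h, 1.4 after 24 h (1.23 to 1.60) and 1.84 after 32 h (1.58 to 2.13). The ratio of *spi* to *Egfr* was 20.4 without heat shock, then 20.9 (8 h), 16.3 (16 h), 12.4 (24 h) and 13.9 (32 h). Both ratios were lowest at 24 h, where *Egfr* was highest, and the interval of the *stet* ratio at 24 h lay far below that of no HS. Protease and ligand transcripts did not keep a constant proportion, and the ratio of *stet* to *spi* was 0.441 in no HS (0.4 to 0.485) and 0.113 at 24 h PHS (0.101 to 0.127).

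**Figure D3:**
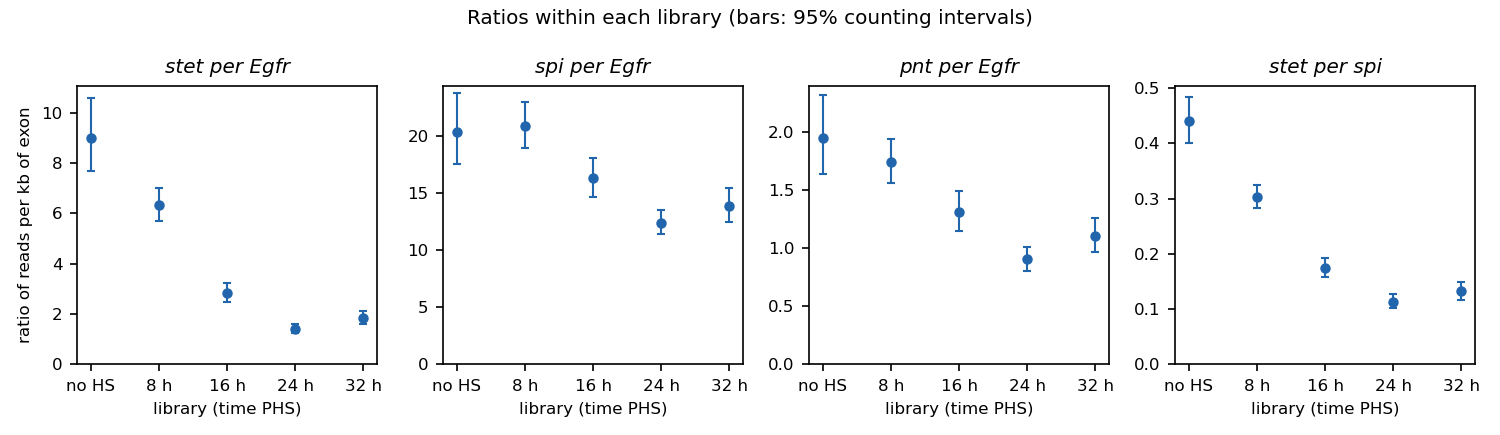
Ratio of reads per kb of exon of 2 genes within the same library (y axes, from 0) for each of the 5 libraries (x axis), with bars for 95% counting intervals. The ratio of *stet* to *Egfr* goes from 9.0 in no HS to 1.4 at 24 h PHS, that of *spi* to *Egfr* from 20.4 to 12.4, that of *pnt* to *Egfr* from 1.95 to 0.902 and that of *stet* to *spi* from 0.441 to 0.113.

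*pnt* (FBgn0003118), on chromosome 3R from 23290231 to 23346167 on the reverse strand, encodes the ETS factor through which the MAP kinase signal reaches genes. It was at 34.8 CPM with no heat shock, followed by 30.3 (8 h), 25.1 (16 h), 19.3 (24 h) and 18.2 CPM (32 h PHS). Its order of libraries was that of *stet* up to 24 h, over a smaller range. Relative to no HS the change was -0.19 after 8 h, -0.46 after 16 h, -0.81 after 24 h and -0.90 after 32 h, and at 32 h *pnt* was at 52.2% of no HS (interval 45.3% to 60.3%), just inside the 2-fold line, which the interval spans. Its rank from the most lowered feature was 204 of 6580 there, beside 5 for *stet*. The early cyst cell marker *zfh1* was at 114, 96.4, 94.2, 77.4 and 64.7 CPM in the same libraries. The other 4 cyst cell markers had changes at 32 h between -0.09 and 0.22, and the summed level of all 5 was 190.4 CPM in no HS and, in the order of the times, 161.5, 178.4, 165.3 and 148 CPM. The ratio of *zfh1* to *tj*, a marker of the same cells, was 3.12 per kb of exon in no HS and 1.90 at 32 h PHS. Whether a shift among cyst cell stages has a part in the level of *pnt* was not tested.

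*aos* (FBgn0004569), on chromosome 3L from 16470386 to 16483650, encodes the secreted antagonist of Spitz and is a gene that EGFR signalling itself switches on in other tissues. It was at 20.2 CPM before heat shock and then at 24.2 (8 h), 30.0 (16 h), 25.2 (24 h) and 21.8 CPM (32 h PHS). The library at 16 h was the high one, at 149% of no HS (interval 127% to 175%), and at 32 h the interval of 91.8% to 128% held no change. *aos* and *pnt*, both used as readouts of the pathway, thus had different courses. The ratio of *spi* to *aos* was 8.34 per kb of exon in no HS, 6.94 at 8 h and 4.79 to 4.85 in the 3 later libraries. The muscle sheath list, a tissue in the same preparations, summed to 1187.3 CPM in no HS and, in the order of the times, to 1287.6, 1480.8, 1542.9 and 1534.0 CPM. The part of the sheath in the level of *aos* was not tested.

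**Figure D4:**
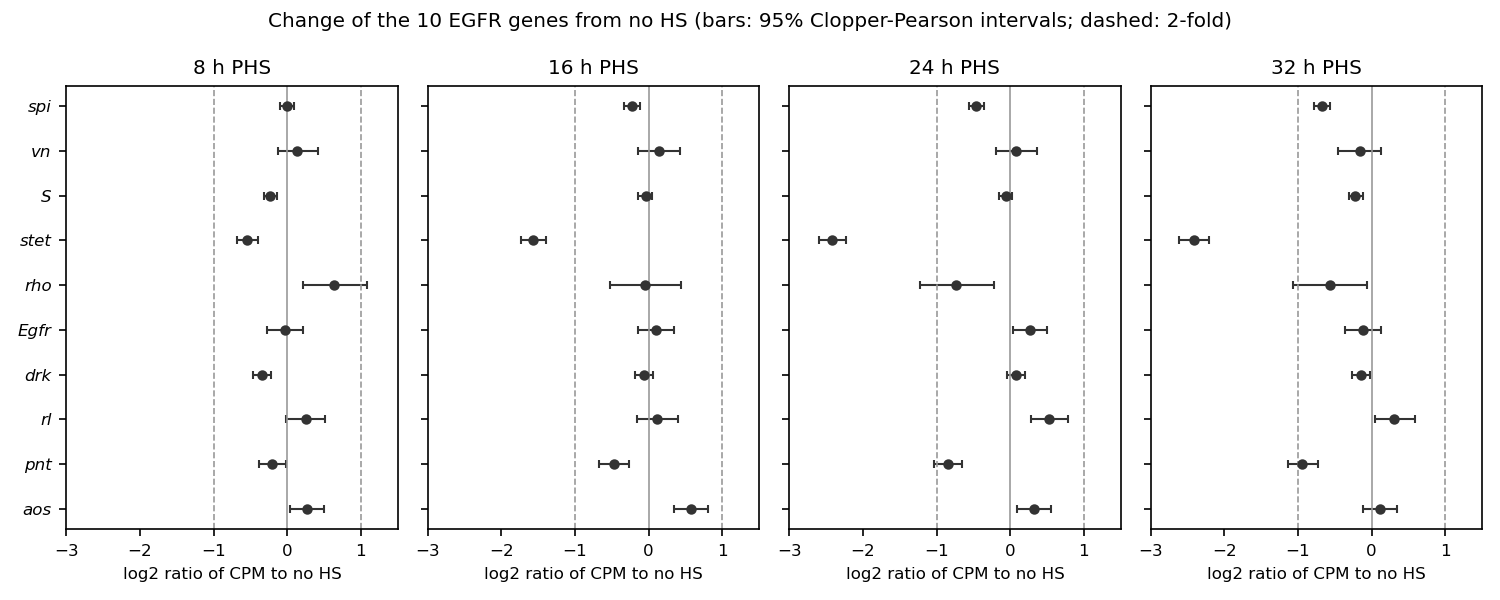
Log2 ratio of CPM to no HS (x axes) of the 10 genes (y axis) at 8, 16, 24 and 32 h PHS, with bars for 95% Clopper-Pearson intervals from the reads and dashed lines at 2-fold. The plotted ratio is taken without the added 1 CPM that the calls use. *stet* lies at -0.54, -1.57, -2.42 and -2.41, beyond the 2-fold line from 16 h, and the points of the other 9 genes lie between the dashed lines.

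Outside the 10 genes, 31 further genes of the pathway were measured, and 0 of them were past 2-fold from no HS in either direction at any of the 4 times. With between 0.165% and 1.18% of all features past 2-fold in 1 direction, a count of 0 is near the background. Their changes lay between -0.62 and 0.47 at 16 h, between -0.74 and 0.52 at 24 h and between -0.57 and 0.34 at 32 h, with medians of 0.04, 0.01 and 0.0. Over the receptor and cascade list of 12 genes, from *Egfr* and the adaptors to the kinases, the median change was 0.12 at 24 h and 0.08 at 32 h PHS. *Sos*, the exchange factor that activates Ras, went from 289 CPM in no HS to 320 CPM at 32 h PHS, 111% with an interval of 106% to 115.4%. The 5 nuclear effectors were all below 0 at 32 h, with a median of -0.29. Among them *gro*, a corepressor, was at 560.4 CPM in no HS and 408 CPM at 32 h PHS, and *aop*, the ETS repressor that opposes *pnt*, was at 79.7 CPM in no HS, 96.8 CPM at 16 h and 67.8 CPM at 32 h PHS. Of the 5 inhibitors measured, *Cbl*, which targets the receptor for turnover, was at 104 CPM in no HS and 129 CPM at 16 h PHS, and *Mkp3*, a MAP kinase phosphatase, at 81.2 and 70.6 CPM. The changes of *sty* and *kek1* at 16 h were 0.04 and 0.01, and the median of the list was 0.04. Of the 4 small GTPase and exchange factor genes that act in cyst cells, *Rho1* was at 461 CPM in no HS and 624 CPM at 24 h PHS, 136% with an interval of 131% to 140%. *Rac1* was at 196.3 and 195.7 CPM in these libraries, *Cdc42* at 261.6 and 263.3 CPM and *Vav* at 93.3 and 90.2 CPM, with a median change of the list of 0.0.

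**Figure D5:**
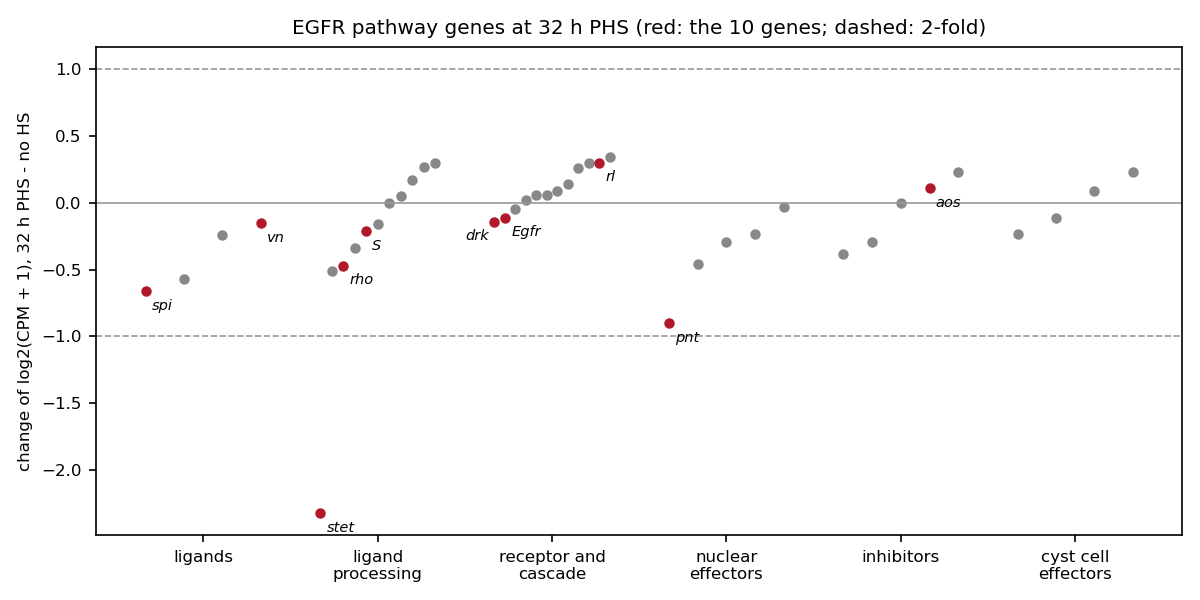
Change of log2(CPM + 1) from no HS to 32 h PHS (y axis) of the 41 measured genes of the EGFR pathway in 6 lists (x axis), 1 point per gene, with the 10 genes described here in red and dashed lines at 2-fold. *stet* at -2.32 lies beyond the 2-fold line, *pnt* at -0.90 is the next lowest and *rl* at 0.30 is the highest of the red points.

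The genes whose course over the 5 libraries was most like that of *stet* were sought among 6597 other genes with a mean of at least 10 CPM, by the root mean square difference of the 4 changes from no HS. They were *CG4860* (difference 0.274), *Syn1* (0.278), *RhoGAP100F* (0.341), *Mov10* (0.355) and *Oseg2* (0.363). *CG4860*, the nearest, was at 52.6 CPM with no heat shock, followed by 31.4 (8 h), 19.9 (16 h), 12.0 (24 h) and 13.1 CPM (32 h PHS). *RhoGAP100F* went from 88.0 to 20.5 CPM at 32 h and *Oseg2*, an intraflagellar transport gene, from 77.6 to 21.8 CPM. Each of these genes, like *stet*, had most of its decrease behind it by 24 h PHS, which follows from their choice by likeness to *stet*. For *spi*, whose own changes were smaller, the nearest were *pyx* (0.026), *Dlip2* (0.027), *CG17786* (0.039), *Pdk* (0.052) and *Taf5* (0.053). *pyx* went from 56.9 CPM in no HS to 35.2 CPM at 32 h PHS. The 4 changes share the no HS library in each case.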

How the data were processed

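PolyA RNA of testes was sequenced in 5 libraries, 1 per condition, and the sample descriptions name the column of each library in the deposited table. Per the paper's methods and the submitters' processing notes, the authors trimmed reads with Trim Galore 0.4.3, mapped the reads to BDGP6.46 using STAR 2.5.3, filtered with SAMtools 1.4.1 (mapping quality of at least 10, proper pairs), counted with featureCounts of Subread 1.5.0, and normalized by TMM with edgeR 3.34.0 under R 4.1.0. The authors deposited log2(normalized CPM + 1), which was turned back to CPM. TMM assumes that most genes do not change. After it the median log2 ratio to no HS, over 6352 features that reached 10 CPM throughout, was at most 0.01. 100% of the values were whole multiples of 1 read (within 0.02 reads), which gave the reads and depth, and 3 reads correspond to 0.105 to 0.292 CPM. No count model was fitted, since 1 library per condition gives no variation.

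Changes are differences of log2(CPM + 1), a scale that understates those of low genes. The interval of a ratio was taken from the reads of both libraries by the Clopper-Pearson method, and that of a level from the exact Poisson limits. The members and lists were chosen with earlier results of these data known, and general knowledge of the pathway and tissue was the source of the lists. Of their genes 3 were not analysed here. Genes named are the 10 members, list genes and the 5 nearest in course to *stet* and *spi*. Coordinates and exon lengths come from the Ensembl annotation of BDGP6.54, a later annotation than the authors', in which 14797 of 14819 gene identifiers were found, and no coordinates were converted. Alternatives were pseudocounts of 0.1 and 5 CPM, a mean of at least 1 CPM, 2 other scalings and another baseline, and the baseline of 8 h PHS alone was added after the values had been seen. The steps were tested on simulated data. Python 3.11.15, numpy 2.4.6, pandas 2.3.3, scipy 1.17.1 and matplotlib 3.10.9 were used. The microarrays of the study were not used here.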

Additional observations from a re-analysis of the deposited data

How the results depend on the processing

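Under the alternatives set in the plan (6, of which the averaged baseline gives no value at 8 h), 0 of the 40 changes of the 10 genes from no HS crossed the 2-fold line, and the number of genes past it stayed as reported. The filter on a mean of at least 1 CPM could not move these changes. It only sets which features are counted, and all 10 genes pass it. The change of *stet* ranged from -1.56 to -1.28 at 16 h, from -2.41 to -2.04 at 24 h and from -2.40 to -2.03 at 32 h PHS. With values rounded to 2 decimals, the sign turned for 6 of the 40, those of *S* at 16 and 24 h, *rl* and *drk* at 16 h, and *aos* and *drk* at 32 h, all of them small, and *spi* at 8 h, at 0.0, ranged from -0.01 to 0.03. With 8 h PHS alone as the baseline, an alternative chosen after seeing the data, the 10 genes lower by more than 2-fold numbered 0 after 16 h, 2 after 24 h and 2 after 32 h. The number of all features past 2-fold depended on the pseudocount. With 0.1 CPM, 405, 513, 650 and 746 features were lower at 8, 16, 24 and 32 h and 954, 912, 1273 and 1233 were higher, in place of 29, 73, 173 and 207 lower and 35, 40, 96 and 198 higher. With 5 CPM, 8, 21, 81 and 103 were lower and 7, 8, 34 and 72 were higher. With no HS and 8 h PHS averaged into 1 baseline, 47 features were lower and 19 higher at 16 h, and 51 were higher at 24 h. With 8 h PHS alone, 31 were lower and 17 higher at 16 h, and 46 were higher at 24 h. A smaller pseudocount brings in features of a few reads, and the cause of the other shifts was not tested. No paired analysis was possible because the labels give 1 library per condition, and leaving out a replicate was not possible for the same reason. Of the 10 genes *rho* had the fewest reads, 56 in no HS, and the widest intervals.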

Other observations

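The germ line markers did not share a course. *nos*, a translational repressor of early germ cells, went from 431 CPM in no HS through 349.8 (8 h), 333 (16 h) and 294 (24 h) to 251 CPM (32 h PHS). *zpg* was at 161, 190.2, 129.8, 102.5 and 63.5 CPM in the same libraries, a change of -1.33 at 32 h. *tej*, a piRNA pathway gene, was at 53.7 CPM in no HS and 29.2 CPM at 32 h PHS, while *aub*, of the same pathway, was at 318 and 380.5 CPM. *bgcn*, the partner of *bam*, was at 314 CPM in no HS and between 187 and 232 CPM in the heat-shocked libraries. Of these 6 markers 1 was lower by more than 2-fold at 32 h, where 1.18% of all features were lower.

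In the ligand processing list *cni*, which encodes a cargo receptor for export from the endoplasmic reticulum, was at 5.94 CPM in no HS and 9.15 CPM at 8 h PHS, 154% with an interval of 116% to 207%, and *rasp*, which encodes the enzyme that adds palmitate to Spitz, lay between 29.8 and 40.4 CPM.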
